A study of Mus musculus with 12 samples.

Results

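Striatal medium spiny neurons, the projection neurons that make up most of the striatum, were followed through 9 of their marker genes in whole-brain RNA from mice lacking interleukin-18. The genes were chosen by symbol, with earlier results of these data known. They encode the receptors Drd1a, Adora2a and Gpr6, the neuropeptide precursors Penk, Tac1 and Pdyn, and the intracellular signalling proteins Ppp1r1b, Rgs9 and Pde10a. They are 9 of the 36163 gene names on the array and were measured by 14 probes. Drd2 and Scn4b, which these neurons also express, lie near Il18 and were not included. The animals were BALB/c mice, given no treatment, in 4 groups of 3: interleukin-18 knockout (KO) at 12 weeks of age, KO at 6 weeks, wild type (WT) at 12 weeks and WT at 6 weeks. Total RNA of the whole brain was hybridised to one-colour Agilent arrays, 1 array for each of the 12 samples, which the labels call biological replicates. How the knockout allele was made, its generations of backcrossing and the sex of the animals are not given in the sources used here, and p-values measure the spread between these samples.

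Medium spiny neurons release GABA and fall into a pair of classes. Direct pathway neurons carry the dopamine D1 receptor (Drd1a, now named Drd1) and the peptide precursors Tac1 and Pdyn. Indirect pathway neurons carry the adenosine A2a receptor (Adora2a), the orphan receptor Gpr6 and the precursor Penk, while Ppp1r1b, Rgs9 and Pde10a work in both classes. D1 and A2a receptors raise cyclic AMP, which the phosphodiesterase Pde10a breaks down. Cyclic AMP drives protein kinase A, whose target Ppp1r1b (DARPP-32) then inhibits protein phosphatase 1. In the nucleus the same pathway acts through the factor CREB, which binds cyclic AMP response elements in promoters. Several of these genes are also expressed outside the striatum, among them Penk, Tac1 and Pdyn.

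Levels below are log2 of the processed spot signal relative to the 75th percentile of the same array, so a level of 0 is as bright as that percentile. Levels of different genes come from different probes and were not set against each other. The 75th percentile lay between 890 and 1188 intensity units, 65.9% to 76.2% of spots were well above background on each array, and no spot was saturated. The number of arrays limits the precision. Il18 checked the labels: its levels were -0.32 to -0.17 on the 6 KO arrays, against 1.51 to 1.93 on the 6 WT arrays. Its change was -1.94 ± 0.10 at 12 weeks and -1.84 ± 0.10 at 6 weeks (log2 KO over WT ± SE; limma, adjusted p = 1.2e-05 and 2.3e-05). The KO signal remained above background, and where the probe lies relative to the deletion is not given in the sources used here. The arrays came from 2 slides, per the file headers. Slide 1 held all 6 WT arrays and KO replicates 1 and 2 at 6 weeks, and slide 2 held KO replicate 3 at 6 weeks and the 3 KO arrays at 12 weeks. At 12 weeks genotype and slide therefore cannot be told apart except through the KO group at 6 weeks, which spans both slides. The 75th percentile of the 12-week arrays was 920, 1026 and 930 for KO, on slide 2, against 1058, 1178 and 1139 for WT, on slide 1. On their slides, all 3 WT arrays at 6 weeks were in column 2 and all 6 KO arrays in column 1. Of the WT arrays at 12 weeks, replicate 1 was in column 2 and replicates 2 and 3 in column 1. At 6 weeks genotype and column therefore cannot be told apart except through that WT group, and age in WT is also partly split by column. Markers of the labelled tissue were present: all 11 pan-neuronal, all 11 cortical and hippocampal, all 12 cerebellar and all 11 striatal interneuron genes tested were well above background on all 12 arrays. The members' main probes were also above background on all 12 arrays, so each of the 9 passed the filter on dim probes.

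At 12 weeks, 5 of the 9 genes differed between KO and WT brains at an adjusted p under 0.05, against 33.0% of all 26493 genes tested. Ppp1r1b, Pdyn, Penk and Rgs9 rose, against a background of 18.5% of genes that rose, and Adora2a fell, against 14.5% that fell. Drd1a, Gpr6, Tac1 and Pde10a did not pass the test. None of the 5 calls held when the slide was entered as a block, as given with each gene. The slide term of that fit rests on 1 array, KO replicate 3 at 6 weeks. The SE at 12 weeks was larger in that fit for all 9 genes, at 0.45 beside 0.24 for Adora2a. The part of slide in each change was not tested beyond that array. Over the 9 genes the median change was 0.11 log2, beside 0.02 over all genes. In whole-brain RNA, a change in the number of cells of a type and a change in RNA per cell cannot be told apart.

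**Figure D1:**
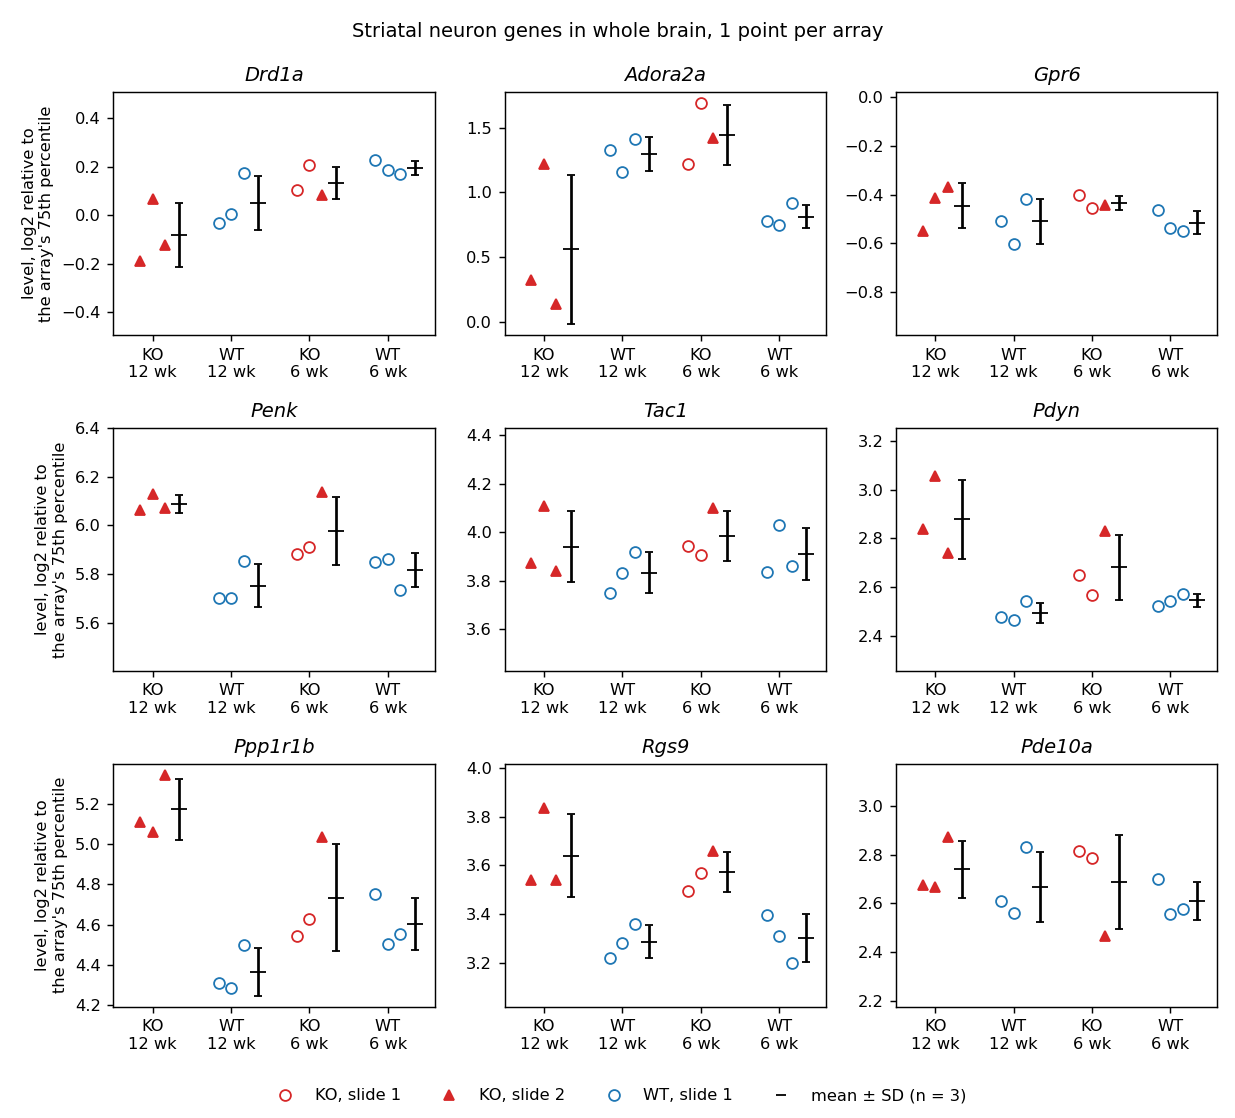
Level of each gene (log2 relative to the array's 75th percentile, vertical axis, scaled separately for each gene) on each array of the 4 groups. Circles are arrays on slide 1, triangles arrays on slide 2, and the bars beside them give mean ± SD (n = 3); the KO arrays at 12 weeks lie above the WT arrays for Ppp1r1b, Pdyn, Penk and Rgs9, and Adora2a spreads from 0.14 to 1.22 in KO at 12 weeks.

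Promoter windows of Pdyn and Rgs9, which rose at 12 weeks, are shown here for reference. Those of Gpr6 and Tac1, which were not called but hold a motif searched for here, are also shown. RefSeq promoter windows on GRCm38.p6, from 250 bases before to 50 bases after a start site, were matched by symbol for 6 members, with 9 windows in all. The reference held no window for Adora2a, Penk or Ppp1r1b, so the promoters of these called genes could not be searched. The windows were searched on both strands for the full element TGACGTCA and for TGCGTCA, the element called ENKCRE-2 in the human proenkephalin gene, and neither motif contains the other. Capitals mark the motif.
Gpr6, chr10:41072241-41072540, minus strand: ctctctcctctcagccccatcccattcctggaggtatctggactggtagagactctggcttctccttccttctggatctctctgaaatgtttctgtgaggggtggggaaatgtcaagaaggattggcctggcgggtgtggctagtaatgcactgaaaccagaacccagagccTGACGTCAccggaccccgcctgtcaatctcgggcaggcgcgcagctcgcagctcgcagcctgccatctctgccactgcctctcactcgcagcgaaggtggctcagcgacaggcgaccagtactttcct
Tac1, chr6:7554811-7555110, plus strand: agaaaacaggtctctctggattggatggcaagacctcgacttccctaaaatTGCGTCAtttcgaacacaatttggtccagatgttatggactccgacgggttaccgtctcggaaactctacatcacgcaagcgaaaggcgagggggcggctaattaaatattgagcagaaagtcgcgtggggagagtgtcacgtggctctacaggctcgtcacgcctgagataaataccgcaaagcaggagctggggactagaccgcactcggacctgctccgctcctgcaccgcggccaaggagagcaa
Pdyn, chr2:129699889-129700188, minus strand: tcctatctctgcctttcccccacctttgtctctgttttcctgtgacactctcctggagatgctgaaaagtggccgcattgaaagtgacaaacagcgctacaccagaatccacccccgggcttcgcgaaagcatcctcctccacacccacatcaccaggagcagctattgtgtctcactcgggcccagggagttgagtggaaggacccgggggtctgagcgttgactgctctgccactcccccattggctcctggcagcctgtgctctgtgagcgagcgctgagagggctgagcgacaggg
Rgs9, chr11:109298132-109298431, minus strand: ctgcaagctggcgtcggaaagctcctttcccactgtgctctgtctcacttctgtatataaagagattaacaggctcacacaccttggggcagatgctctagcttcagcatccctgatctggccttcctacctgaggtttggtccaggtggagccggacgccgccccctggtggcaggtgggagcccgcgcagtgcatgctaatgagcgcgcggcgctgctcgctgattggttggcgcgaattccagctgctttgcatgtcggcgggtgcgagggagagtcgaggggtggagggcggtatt
The full element stood in the Gpr6 window, with its first base at position -78 from the start site, and in 1.79% of all 32851 windows. TGCGTCA stood in the Tac1 window, with its first base at position -199, and in 2.116% of all windows. Neither motif was found in the windows of Pdyn, Rgs9, Drd1a or Pde10a, of which a Pdyn window and the Rgs9 window are printed above. A match in a window is a description of the letters and not a measured binding site.

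Among the receptors, Adora2a was the only one called, and in 1 comparison. Adora2a couples to stimulatory G proteins and is concentrated in indirect pathway neurons. Its levels were 0.32, 1.22 and 0.14 in KO brains at 12 weeks, against 1.32, 1.16 and 1.41 in WT brains at 12 weeks. KO replicates 1 and 3 lay below all WT arrays, and KO replicate 2 lay inside the WT range. The change was -0.74 ± 0.24 log2 (limma, adjusted p = 0.0367), a fold of 0.599. At 6 weeks the levels ran the other way, 1.22, 1.69 and 1.42 in KO brains against 0.78, 0.74 and 0.91 in WT brains. These groups did not overlap, which held for 23.7% of all genes at this age, but the change of 0.63 ± 0.24 did not pass (adjusted p = 0.201). The difference of the KO effect between ages was -1.37 ± 0.33 log2 and also did not pass over all genes (limma, adjusted p = 0.118). Without KO replicate 2 at 12 weeks the change at 12 weeks was -1.07, and leaving out any other array of that comparison ended the call. The 12-week change was -0.70 ± 0.45 with slide as a block (adjusted p = 0.730). The group means were in the order KO at 6 weeks (1.44 ± 0.23), WT at 12 weeks (1.30 ± 0.13), WT at 6 weeks (0.81 ± 0.09) and KO at 12 weeks (0.56 ± 0.58; SD, n = 3 each). The middle pair in this order did not overlap, and the outer neighbours did.

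Drd1a, the D1 receptor of direct pathway neurons, did not pass in any comparison. Its levels were -0.19, 0.07 and -0.12 in KO brains at 12 weeks, against -0.03, 0.00 and 0.18 in WT brains. The groups overlapped and the change was -0.13 log2, with a 95% interval of -0.32 to 0.05 (adjusted p = 0.247). At 6 weeks the levels were 0.10, 0.21 and 0.09 in KO brains, against 0.23, 0.18 and 0.17 in WT brains, a change of -0.06 (interval -0.25 to 0.12). The 12-week KO arrays all lay below the 6-week KO arrays, a change of -0.21 ± 0.08 that did not pass (adjusted p = 0.141). The group means were, from high to low, in the order WT at 6 weeks, KO at 6 weeks, WT at 12 weeks and KO at 12 weeks, with each group overlapping the next.

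Gpr6, a constitutively active receptor of indirect pathway neurons that raises cyclic AMP, lay between -0.61 and -0.37 on all 12 arrays. Its levels were -0.55, -0.42 and -0.37 in KO brains at 12 weeks, against -0.51, -0.61 and -0.42 in WT brains. At 6 weeks they were -0.40, -0.46 and -0.44 in KO brains, against -0.46, -0.54 and -0.55 in WT brains. The 12-week groups overlapped and the 6-week groups did not. The changes were 0.07 log2 at 12 weeks (interval -0.09 to 0.22) and 0.08 at 6 weeks (interval -0.08 to 0.24), and neither passed (limma, adjusted p = 0.502 and 0.538).

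Of the neuropeptide precursors, 2 of 3 rose at 12 weeks. Penk, the precursor of the enkephalins and the peptide of indirect pathway neurons, had levels of 6.06, 6.13 and 6.07 in KO brains at 12 weeks, against 5.70, 5.70 and 5.85 in WT brains. By these scaled levels every KO array was above every WT array, and the groups were likewise apart for 52.4% of all genes at this age. Before scaling, the intensities overlapped, at 61470, 71771 and 62555 in KO brains, against 55113, 61242 and 65808 in WT brains. The change was 0.34 ± 0.08 log2 (limma, adjusted p = 0.0139), a fold of 1.26. At 6 weeks the levels were 5.88, 5.91 and 6.14 in KO brains, against 5.85, 5.86 and 5.73 in WT brains. The groups were again apart, with a change of 0.16 that did not pass (adjusted p = 0.315). The highest 6-week KO array was replicate 3, the one on slide 2, which was 0.24 above the mean of replicates 1 and 2. The 12-week change was 0.10 ± 0.11 with slide as a block (adjusted p = 0.855). Under quantile normalization it was 0.06 and not called.

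Pdyn, the precursor of the dynorphins and a peptide of direct pathway neurons, had levels of 2.84, 3.06 and 2.74 in KO brains at 12 weeks, against 2.48, 2.46 and 2.54 in WT brains. By these scaled levels the groups did not overlap, and the change was 0.39 ± 0.09 log2 (limma, adjusted p = 0.0127), a fold of 1.31. At 6 weeks the levels were 2.65, 2.57 and 2.83 in KO brains, against 2.52, 2.54 and 2.57 in WT brains. The lowest KO array there fell just inside the WT range, and the change of 0.14 did not pass (adjusted p = 0.429). Entering slide as a block gave a 12-week change of 0.16 ± 0.14 (adjusted p = 0.797). A second Pdyn probe, at chr2:129513968-129514027 on the minus strand of mm9, lies in the coding part. It is shown with the codons of a leucine-enkephalin sequence in capitals.
Pdyn coding probe: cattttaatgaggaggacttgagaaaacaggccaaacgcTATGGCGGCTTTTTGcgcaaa
This probe was dim, with levels of -5.55 to -3.56 on the 12 arrays and 11 of them above background, and its 12-week change was -0.04 ± 0.39 (adjusted p = 0.940). Its interval, -0.90 to 0.81, holds the change seen with the brighter probe.

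Tac1, the precursor of substance P and the other peptide of direct pathway neurons, did not pass in any comparison. Its levels were 3.87, 4.11 and 3.84 in KO brains at 12 weeks, against 3.75, 3.83 and 3.92 in WT brains. At 6 weeks they were 3.94, 3.91 and 4.10 in KO brains, against 3.84, 4.03 and 3.86 in WT brains. The groups overlapped at both ages. The change was 0.11 log2 at 12 weeks (interval -0.10 to 0.32) and 0.07 at 6 weeks (interval -0.14 to 0.28), and each of the 4 groups overlapped its neighbour in the order of means. The sign of the 12-week estimate turned with the processing: it was -0.07 with slide as a block, -0.08 under quantile normalization and -0.01 with normexp background correction.

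Of the intracellular signalling genes, 2 of 3 rose at 12 weeks. Ppp1r1b encodes DARPP-32, which dopamine signalling switches between inhibiting a phosphatase and inhibiting a kinase. Its levels were 5.11, 5.06 and 5.34 in KO brains at 12 weeks, against 4.31, 4.29 and 4.50 in WT brains. The lowest KO array lay well above the highest WT array, and the change was 0.81 ± 0.14 log2 (limma, adjusted p = 0.00534), a fold of 1.75. At 6 weeks the levels were 4.54, 4.63 and 5.04 in KO brains, against 4.75, 4.51 and 4.55 in WT brains. Here the groups overlapped, and the change was 0.13 ± 0.14 (adjusted p = 0.614). The 6-week KO array that reached 5.04 was replicate 3, on slide 2 with the 12-week KO arrays, and it was 0.45 above the mean of the 2 KO arrays on slide 1. In the fit with slide as a block the 12-week change was 0.35 ± 0.18 log2 (interval -0.05 to 0.76, adjusted p = 0.664). The difference of the KO effect between ages was 0.68 ± 0.19 and did not pass (limma, adjusted p = 0.143). It passed when KO replicate 3 at 6 weeks was left out, at 0.83 (adjusted p = 0.00826). Without that array all 6-week arrays lie on slide 1, and the difference cannot be told apart from slide.

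Rgs9 speeds the shut-off of G protein signals downstream of dopamine and opioid receptors. Its levels were 3.54, 3.84 and 3.54 in KO brains at 12 weeks, against 3.22, 3.28 and 3.36 in WT brains. By these scaled levels the groups did not overlap, and the change was 0.35 ± 0.09 log2 (limma, adjusted p = 0.0191), a fold of 1.28. At 6 weeks they were 3.49, 3.57 and 3.66 in KO brains, against 3.40, 3.31 and 3.20 in WT brains. These were also apart, with a change of 0.27 ± 0.09 that did not pass (adjusted p = 0.177). The 6-week change was 0.23 within slide 1 and with slide as a block, and the 12-week change was 0.23 ± 0.17 with slide as a block (adjusted p = 0.765). Leaving out WT replicate 1 or 2 or KO replicate 2 at 12 weeks ended the 12-week call, with changes of 0.32, 0.35 and 0.25. A second Rgs9 probe shares 54 of its 60 bases with the first and gave a 12-week change of 0.46 ± 0.12 (adjusted p = 0.0169). Another, which the files assign to transcript variant 2 and which lies at chr11:109096382-109096441 on mm9, was dim at -4.28 to -3.65. Its 12-week change was -0.24 ± 0.12 and did not pass (adjusted p = 0.153), against the rises on the other 2 probes.

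Pde10a, the phosphodiesterase that degrades cyclic AMP in both classes of neuron, did not pass in any comparison. Its levels were 2.68, 2.67 and 2.88 in KO brains at 12 weeks, against 2.61, 2.56 and 2.83 in WT brains. At 6 weeks they were 2.81, 2.79 and 2.47 in KO brains, against 2.70, 2.55 and 2.58 in WT brains. The groups overlapped at both ages, and the changes were 0.07 log2 (interval -0.17 to 0.32) and 0.08 (interval -0.17 to 0.33). Its 12-week change was 0.41 ± 0.16 with slide as a block (adjusted p = 0.601). The 6-week KO array on slide 2 was 0.33 below the mean of the other 2 for this gene. A second probe gave 0.11 ± 0.17 at 12 weeks, and the remaining probe, above background on 1 of 12 arrays, was not kept.

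**Figure D2:**
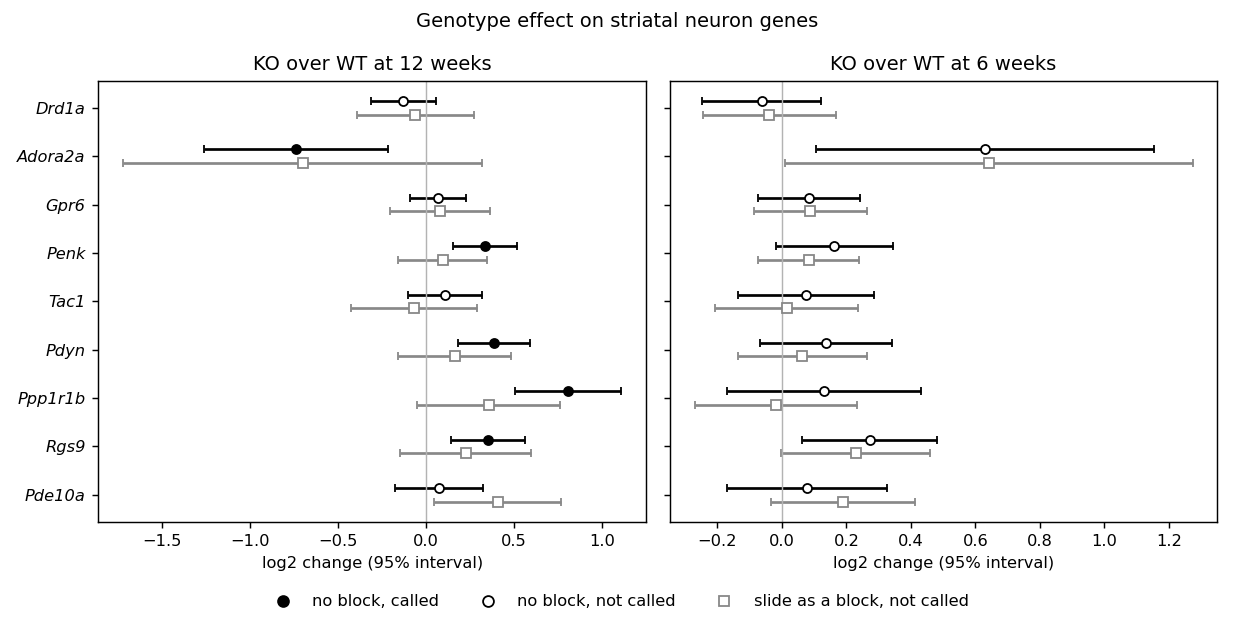
Log2 change of KO over WT with its 95% interval at 12 weeks (left) and 6 weeks (right), from the fit without a block (circles, filled where called) and with slide as a block (grey squares). At 12 weeks the filled points are Adora2a, Penk, Pdyn, Ppp1r1b and Rgs9, and no square is filled at either age.

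At 6 weeks none of the 9 genes was called by limma, against 0.925% of all genes (0.547% higher and 0.377% lower), while 2 had an unadjusted p under 0.05 (Adora2a and Rgs9). The change was above 0 for 8 of the 9, with a median of 0.13 log2, beside 0.04 over all genes. In the fit with slide as a block it was above 0 for 7 of the 9, with a median of 0.08. The groups were apart for 4 members, Adora2a, Gpr6, Penk and Rgs9, as they were for 23.7% of all genes. The arrays of slide 1 alone also gave 0 calls among the members. At 6 weeks all KO arrays were in column 1 of their slide and all WT arrays in column 2.

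With age, none of the 9 genes was called by limma in KO brains, against 2.02% of all genes (1.11% higher and 0.913% lower). In WT brains none was called, against 0.638% of all genes (0.430% higher and 0.208% lower). In KO brains 3 had an unadjusted p under 0.05, and in WT brains 0 did. Adora2a was -0.88 ± 0.24 log2 at 12 over 6 weeks in KO (adjusted p = 0.0674) and 0.48 ± 0.24 in WT (adjusted p = 0.378). Ppp1r1b was 0.44 ± 0.14 in KO (adjusted p = 0.0887) and -0.24 ± 0.14 in WT (adjusted p = 0.458), and for both genes the ages did not overlap in either genotype. For groups that do not overlap with age the background was 26.3% of genes in KO and 24.8% in WT. Without KO replicate 3 at 6 weeks, Adora2a (-0.90), Pdyn (0.27) and Ppp1r1b (0.59) were called for age in KO, and without KO replicate 2 at 12 weeks Adora2a was, at -1.21. These comparisons share groups with those of genotype. The difference of the KO effect between ages was called for 0 of 9 members, against 0.189% of all genes (0.0453% higher and 0.143% lower), with 2 at an unadjusted p under 0.05 (Adora2a and Ppp1r1b). It was called for 2 members without KO replicate 3 at 6 weeks and for 1, Adora2a at -1.70, without KO replicate 2 at 12 weeks. Without KO replicate 3 at 6 weeks, no 6-week array is left on slide 2. Neither age in KO nor the difference between ages can then be told apart from slide.

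By class of neuron, the direct pathway genes Drd1a, Tac1 and Pdyn had a median change of 0.11 log2 at 12 weeks, with 1 of 3 called, a rise. The indirect pathway genes Adora2a, Penk and Gpr6 had a median of 0.07, with 1 rise and 1 fall, and the receptor Adora2a and the peptide precursor Penk moved in opposite directions. With slide entered as a block the medians were -0.06 for the direct pathway genes and 0.08 for the indirect pathway genes, and 0 of each were called.

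The KO array of 6 weeks on slide 2 was higher than both KO arrays on slide 1 for 5 members, Penk, Tac1, Pdyn, Ppp1r1b and Rgs9, and lower than both for 2, Drd1a and Pde10a. Its median difference from their mean was 0.13 log2 over the members, beside 0.07 over all genes. Of all genes, 49.5% were higher on it than on both slide 1 arrays and 32.2% lower. Of the 4893 genes called higher in KO at 12 weeks, 89.1% were higher on it, and the 4 members that rose at 12 weeks were among the 5. The fit with slide as a block called 0 members at 12 weeks and 30 of all genes, 0.113%. Its slide term rests on this KO array of 6 weeks against those on slide 1. As a random block, slide also left 0 members called, at adjusted p of 0.127 for Ppp1r1b to 0.260 for Adora2a. The part of the slide in the 12-week changes cannot be told apart from that of genotype beyond these values.

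The values that follow describe how the members varied among arrays of the same group. No share over pairs of all genes was computed to set beside them. Over the 12 arrays, after each group's mean was taken out, 28 of the 36 pairs of members had a positive Pearson r, with a median of 0.354 and a range from -0.563 for Pdyn with Pde10a to 0.824 for Tac1 with Pdyn. Drd1a with Adora2a, of opposite classes, reached 0.756. Pde10a had a negative r with 6 of the other 8 members, and Ppp1r1b with Penk reached 0.726. The points share their arrays and so the tissue taken and the scaling of each array. The deviations of the KO group at 6 weeks also hold the difference between its slides. On WT replicate 3 at 12 weeks all 9 members lay above their group's mean, and on KO replicate 2 at 12 weeks 7 did. On KO replicate 1 and WT replicate 2 at 12 weeks 0 did. The mean level over the 9 members was 2.63 to 2.86 on the KO arrays at 12 weeks, against 2.52 to 2.69 on the WT arrays, and 2.69 to 2.81 on the KO arrays at 6 weeks, against 2.56 to 2.62 on the WT arrays. The deviations of each gene over the 12 arrays were also set against the mean of the members' standardised deviations. The 5 most alike were Izumo4 (r = 0.975), Rnf207 (0.941), Rps6ka4 (0.937), Cyb5rl (0.936) and Pgam2 (0.932). They were picked as the highest after leaving out the members, genes with a missing value, and names that are only an accession, clone or similar number.

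**Figure D3:**
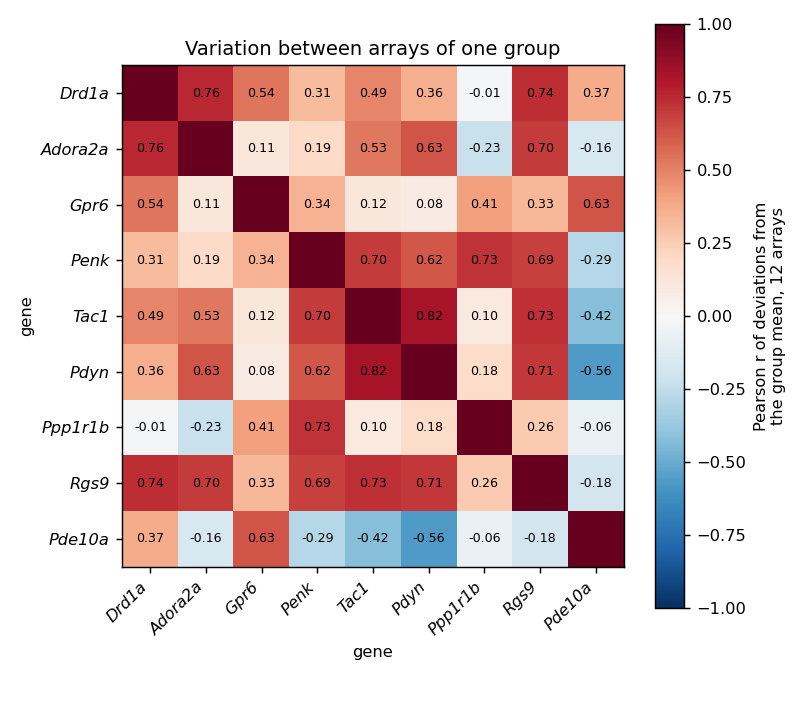
Pearson r between each pair of members over the 12 arrays after each group's mean was taken out, as coloured squares from -1 to 1. Most pairs are positive, up to 0.824 for Tac1 with Pdyn, and Pde10a is negative with the peptide precursors, down to -0.563.

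Of 42 further genes listed for medium spiny neurons, 13 rose, 4 fell and 25 did not pass at 12 weeks, with a median change of 0.15 log2. Whole-brain RNA does not show which cells gave these signals. Over all genes 18.5% rose and 14.5% fell, 33.0% in all. The 4 with the lowest adjusted p were Prkcd, a protein kinase C isoform (0.47 ± 0.08, limma adjusted p = 0.00512), Adcy5, the main striatal adenylyl cyclase (0.56 ± 0.10, 0.00599), Six3, a transcription factor of indirect pathway neurons (0.69 ± 0.12, 0.00605), and Rasd2, a small G protein (0.57 ± 0.11, 0.00663). The genes that fell, looked up after their values were seen, were Ido1 (-1.04), the kappa opioid receptor gene Oprk1 (-0.47), Foxp2 (-0.44) and Strn (-0.28). Of the 42, 0 were called by limma at 6 weeks, where 13 had an unadjusted p under 0.05, and 0 with age in KO, where 12 had. With age in WT 1 was called, Rgs7bp at -0.92. None of the 42 was called at 12 weeks with slide as a block, and the median change was 0.06. The summed level of the 42 genes was 501 to 521 times the 75th percentile in KO brains at 12 weeks, against 391 to 412 in WT brains, and 452 to 551 in KO brains at 6 weeks, against 447 to 466 in WT brains. The highest of the 12 sums was that of the 6-week KO array on slide 2.

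Genes of other neurons gave the following values in the same fit at 12 weeks, where 18.5% of all genes rose and 14.5% fell. Pan-neuronal genes had 6 rises and 0 falls among 11, with Eno2 (0.71), Nefm (0.40), Syp (0.83) and Rbfox3 (0.38) named, and a median of 0.34 log2. Their summed level, in multiples of the 75th percentile as for the striatal genes, was 600.2 to 646 in KO brains at 12 weeks, against 483 to 499 in WT brains. Striatal interneuron genes had 2 rises, Npy (0.59) and Pvalb (0.53), and 1 fall, Nos1 (-0.64), among 11, with a median of 0.07. Of this list Chat, a gene of cholinergic neurons, fell with age in WT at -0.96. The other 10 were not called for age in WT, among them Slc5a7 (-0.12) and Slc18a3 (-0.06), also cholinergic genes. The summed level of the interneuron genes at 12 weeks was 123 to 133 in KO brains, against 97.8 to 102 in WT brains. Cortical and hippocampal genes had 3 rises, Fezf2 (0.48), Emx1 (0.28) and Tbr1 (0.31), and 1 fall, Prox1 (-0.38), among 11, with a median of 0.07, and summed to 38.0 to 40.4 in KO brains, against 32.8 to 35.5 in WT brains. Cerebellar genes had 0 rises and 3 falls among 12, Neurod1 (-1.07), Cbln3 (-0.88) and Zic1 (-0.25), with a median of -0.27, and summed to 103 to 138 in KO brains, against 113 to 138 in WT brains. Midbrain dopamine genes, of the neurons that feed dopamine to the striatum, had 1 rise, Th (0.54), and 1 fall, Nr4a2 (-0.39), among 9. Their median was 0.11, and they summed to 43.7 to 47.7 in KO brains, against 38.9 to 43.5 in WT brains. In such sums the brightest probes weigh most. By mean log2 level at 12 weeks the cerebellar genes were apart, at 1.67 to 1.92 in KO brains against 2.05 to 2.36 in WT brains. By that mean the midbrain dopamine genes overlapped, at 0.67 to 0.88 in KO brains against 0.61 to 0.70 in WT brains. The pan-neuronal, interneuron, and cortical and hippocampal genes were apart by both measures. At 6 weeks the pan-neuronal genes summed to 496 to 682 in KO brains, against 499 to 518 in WT brains, and the interneuron genes to 103 to 135 in KO brains, against 107 to 111 in WT brains. The cortical and hippocampal genes then summed to 35.3 to 39.3 in KO brains, against 33.5 to 35.6 in WT brains, the cerebellar genes to 113 to 130.01 in KO brains, against 121 to 132 in WT brains, and the midbrain dopamine genes to 41.8 to 50.5 in KO brains, against 41.8 to 42.9 in WT brains. The 12-week median with slide as a block turned its sign for the pan-neuronal genes, to -0.05 with 4 of 11 above 0, and for the midbrain dopamine genes, to -0.11 with 1 of 9 above 0. It was 0.03 for the interneuron, 0.14 for the cortical and hippocampal and -0.20 for the cerebellar genes. None of the 54 genes of these 5 lists was called by limma at 6 weeks, where 7 had an unadjusted p under 0.05, or at 12 weeks with slide as a block, and their part in the members' changes was not tested.

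**Figure D4:**
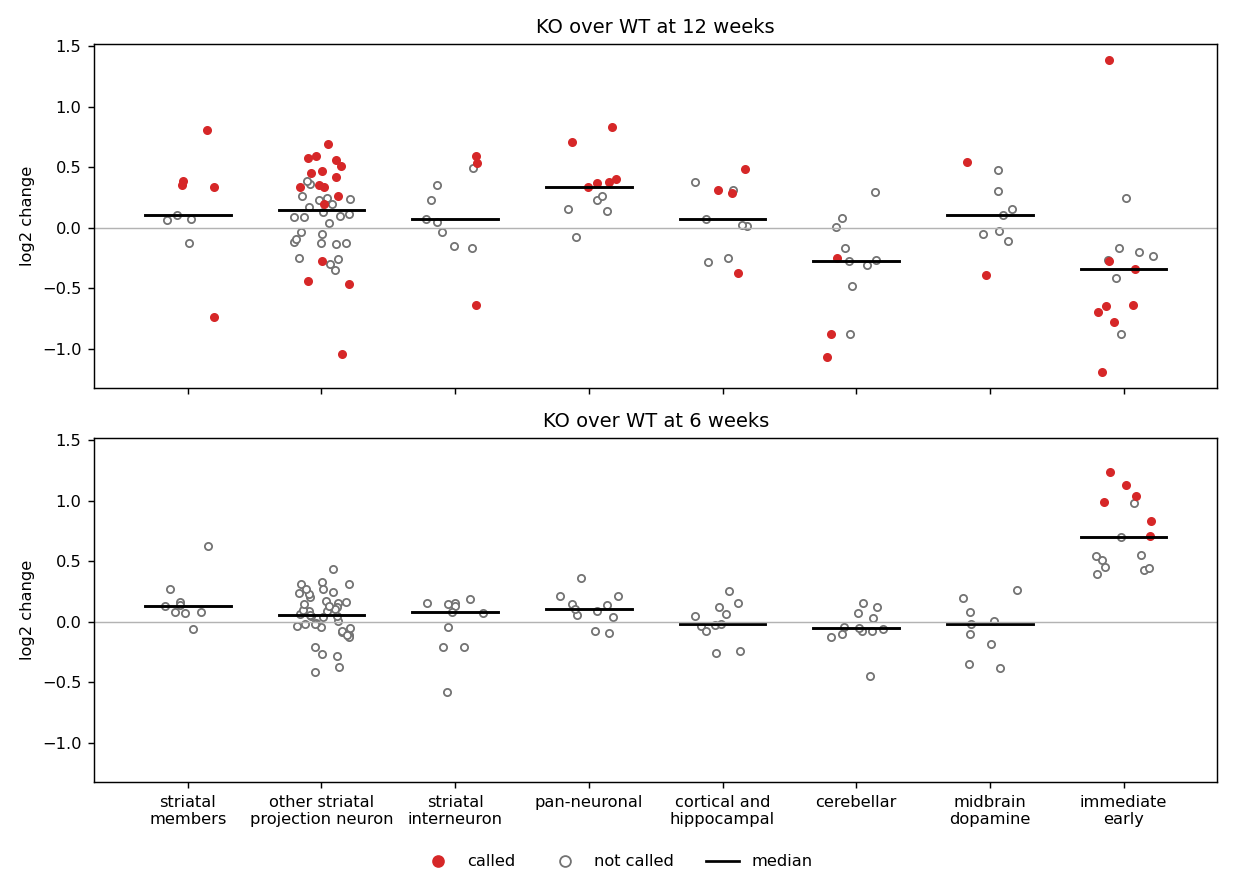
Log2 change of KO over WT at 12 weeks (top) and 6 weeks (bottom) for each gene of the members and of 7 other lists, with a bar at each list's median. Filled red points are called genes; at 12 weeks the striatal members and the other striatal genes hold both rises and falls, and at 6 weeks called genes appear in the immediate early list. The lowest immediate early point at 12 weeks is Nr4a3, above background on 6 of 12 arrays.

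Immediate early genes, which neurons switch on within minutes of activity and which cyclic AMP and CREB also drive, were the one list with calls at 6 weeks. Of 15, 6 rose and 0 fell at 6 weeks, with a median of 0.70 log2, and 1 rose and 7 fell at 12 weeks, with a median of -0.35. Over all genes 0.547% rose and 0.377% fell at 6 weeks, and 18.5% rose and 14.5% fell at 12 weeks. Egr2 was -0.69 ± 0.15 at 12 weeks (limma, adjusted p = 0.00951) and 1.13 ± 0.15 at 6 weeks (0.00941). Fos was -0.78 ± 0.19 at 12 weeks (0.0136) and 1.04 ± 0.19 at 6 weeks (0.0363). Nr4a1 was -0.35 ± 0.11 at 12 weeks (0.0332) and 0.71 ± 0.11 at 6 weeks (0.0171). Nr4a3 was also called, lower at 12 weeks, but only 6 of 12 arrays measured it above background and no size is given. The one that rose at 12 weeks was Egr3, at 1.39 ± 0.34, looked up after its values were seen. Egr3 was above background on 11 of 12 arrays. The difference of the KO effect between ages was called for 6 of the 15, all lower at 12 weeks, including Egr2 (-1.83), Fos (-1.82) and Nr4a1 (-1.06). Among the members, Adora2a was the gene whose changes had the same pair of signs, 0.63 at 6 weeks and -0.74 at 12 weeks, and its difference between ages did not pass. With slide as a block 4 of the 15 were called at 6 weeks, 0 at 12 weeks and 1 for the difference. At 6 weeks the KO and WT arrays also differed in column, and no fit with the column as a block is given for this list.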

How the data were processed

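RNA of 12 whole brains was labelled with Cy3. The submitters' processing notes name Agilent Feature Extraction, version 10.7.3.1. Deposited intensity values comprise processed and mean signals and the local background, per the file headers. Other deposited columns are 0 or 1 flags for spots above background, saturated or outlying, per the file headers. The deposited value table, also intensity, differed from the processed signal by at most 0.498%. Probe positions are on mm9, and gene names are those of the files.

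Outlier spots were left out, and log2 processed signal minus the array's own log2 75th percentile over 59305 non-control spots was averaged over the spots of a probe. Probes had to be well above background on every array of some group (37196 probes), and the brightest probe stood for its gene (26493 genes). Testing used lmFit and eBayes of limma 3.58.1 under R 4.3.3, two-sided, fitting the 4 group means to all 12 arrays together (8 residual degrees of freedom). Each of the 5 comparisons was adjusted by Benjamini-Hochberg over the whole table, and called means an adjusted p under 0.05. Values after ± are SE. The fit was tested on simulated data. Precision is limited by 3 arrays per group and by signal over background.

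The members and lists were chosen with earlier results of these data known. The 9 members are always named; of each other list, up to 4 called genes are, those called in most comparisons and then by lowest adjusted p; and the 5 genes most like the members by Pearson r. Alternatives covered background correction, scaling, the filter, the probe, the slide, the replicate number as a block and each array left out. Replicate numbers were not taken as pairs: over 18 pairs of same-numbered arrays the correlation of deviations was -0.204 to 0.108, with 2 over 0.1.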

Additional observations from a re-analysis of the deposited data

How the results depend on the processing

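At 12 weeks, where 5 of 9 members were called, the count was 0 with slide as a fixed block, 0 with slide as a random block (consensus correlation 0.361), 3 with the column of the array on its slide as a block and 3 under quantile normalization. It was 3 to 4 when 1 array was left out, with 3 without WT replicate 1 or WT replicate 2 at 12 weeks. In the other settings, normexp, median scaling, no filter on dim probes, only the groups compared, every kept probe and the deposited value table, it was 4 or 5. Normexp, median scaling, no filter, the column block and only the groups compared each ended the call of Adora2a, at -0.56, -0.62, -0.74, -0.72 and -0.74. Rgs9 was lost at 0.19 under quantile normalization and at 0.32 with the column block. Ppp1r1b and Pdyn passed in 14 of the 16 settings with a value for each gene, and Penk passed in 13, Rgs9 in 9 and Adora2a in 4. At 6 weeks and for age in WT the count stayed at 0 in all settings run. For age in KO it was 0 to 3, and for the difference between ages 0 to 2, when 1 array was left out. The highest of these counts came without KO replicate 3 at 6 weeks, the only 6-week array on slide 2. No called change of a member reversed its sign in these settings.

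The median of all genes moved to 0.14 at 12 weeks and 0.13 at 6 weeks under median scaling, and the split of all called genes at 12 weeks was 7386 higher and 2013 lower, beside 4893 and 3847. With normexp it was 5728 and 3067. Called genes at 6 weeks numbered 593 with normexp, 459 under quantile normalization, 471 under median scaling, 95 without the filter and 56 with only the groups compared, beside 245.

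The replicate number as a block gave 5 members called at 12 weeks and 0 in each of the other 4 comparisons, with 7562 of all genes called at 12 weeks and 115 at 6 weeks. Of the 12 arrays, 2 correlated best with an array of their own number.

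With 3 arrays per group, differences within the printed intervals were not detectable here. Of the members' dim probes, 1 of Pde10a was above background on 1 of 12 arrays, that of Pdyn on 11 and that of Rgs9 on 12. The slide as a block for the other lists and the comparison of the 6-week KO arrays across slides were chosen after seeing the data.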
